A study of Mus musculus with 8 samples.

Results

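The Meis, Pbx and Pknox genes encode partner proteins of the Hox transcription factors, and 8 of them were examined here: Meis1, Meis2, Meis3, Pbx2, Pbx3, Pbx4, Pknox1 and Pknox2. They were chosen by gene symbol from the 32567 genes of the RNA-seq count table, and each symbol was found once. RNA was measured in mouse embryonic stem cells (ESC) and in cells obtained from them by embryoid body culture with retinoic acid (RA-DIFF). Each stage had a wild-type line and an Htt-null line, Hdhex4/5/ex4/5, which carries a targeted null allele of the huntingtin gene Htt on both chromosomes. Each of the 4 conditions had 1 library, so that no difference had a replicate check, and a difference between genotypes is a difference between 1 cell line of each kind. No other allele or agent is given for either genotype. For RA-DIFF, feeder cells were withdrawn over 4 passages, embryoid bodies were grown for 8 days with 5 µM retinoic acid from day 4, and RNA comes from 2 h after the dissociated cells were plated. The RNA-seq libraries held between 63617410 and 110569127 counts.

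TALE homeodomain proteins carry a 3-residue loop insertion between the helices of the DNA-binding homeodomain. Pbx proteins bind DNA together with Hox proteins and extend the sequence that a Hox protein can select. Meis and Pknox proteins (the latter also called Prep) bind Pbx directly, help to bring it into the nucleus and keep it from degradation, and they can complete a complex of Pbx, Meis or Pknox, and Hox. These genes are known for hindbrain and limb patterning, and Meis1 and Meis2 are known to be induced by retinoic acid, the signal that also activates Hox genes along the body axis.

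On build GRCm38, Meis1 (ENSMUSG00000020160) lies at chr11:18879817-19018985, Meis2 (ENSMUSG00000027210) at chr2:115863064-116065839, Pbx3 (ENSMUSG00000038718) at chr2:34171457-34373142 and Pknox2 (ENSMUSG00000035934) at chr9:36890982-37147322, all on the minus strand. Meis3 (ENSMUSG00000041420) at chr7:16175090-16186504, Pbx2 (ENSMUSG00000034673) at chr17:34591266-34597400, Pbx4 (ENSMUSG00000031860) at chr8:69832491-69872292 and Pknox1 (ENSMUSG00000006705) at chr17:31564749-31607684 are on the plus strand. Their spans differed widely, from 6.13 kb for Pbx2 to 256 kb for Pknox2. In the annotation, Meis2, Meis3, Pbx3, Pbx4 and Pknox2 share no exon bases with another gene. Meis1 shares 1029 of its 10532 exon bases with Gm37818 on the same strand and 896 with the antisense Gm16140. Pbx2 shares 227 of 3640 with Gpsm3 on the same strand, and Pknox1 shares 155 of 6933 with an antisense transcript. Part of the reads of these 3 genes could therefore have been assigned to a neighbour or left uncounted.

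The RefSeq promoter windows of Meis1, Meis3 and Pbx2 are shown because, of the members with a window in the promoter table, Meis1 and Meis3 had the largest ratios between the stages and Pbx2 the highest level per length. Each window runs from 250 bases before to 50 bases after a transcription start, is printed 5′ to 3′ on the gene's strand, and has its CpG dinucleotides in capitals. The coordinates are of build GRCm38.p6: chr11:19018920-19019219 (minus strand) for Meis1, chr7:16175145-16175444 (plus strand) for Meis3 and chr17:34592009-34592308 (plus strand) for Pbx2.
Meis1: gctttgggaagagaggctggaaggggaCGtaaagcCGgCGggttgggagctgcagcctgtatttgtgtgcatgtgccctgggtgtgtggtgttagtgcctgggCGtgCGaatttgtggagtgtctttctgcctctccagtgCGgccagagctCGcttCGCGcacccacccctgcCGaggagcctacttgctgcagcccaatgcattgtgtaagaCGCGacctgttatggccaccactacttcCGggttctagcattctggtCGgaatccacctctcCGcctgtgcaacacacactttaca
Meis3: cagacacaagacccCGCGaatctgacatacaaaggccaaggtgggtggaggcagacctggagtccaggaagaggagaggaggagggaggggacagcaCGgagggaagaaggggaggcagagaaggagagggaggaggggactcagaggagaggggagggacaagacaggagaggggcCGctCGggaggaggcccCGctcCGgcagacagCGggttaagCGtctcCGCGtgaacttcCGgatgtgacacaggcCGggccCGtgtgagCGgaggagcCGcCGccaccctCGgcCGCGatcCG
Pbx2: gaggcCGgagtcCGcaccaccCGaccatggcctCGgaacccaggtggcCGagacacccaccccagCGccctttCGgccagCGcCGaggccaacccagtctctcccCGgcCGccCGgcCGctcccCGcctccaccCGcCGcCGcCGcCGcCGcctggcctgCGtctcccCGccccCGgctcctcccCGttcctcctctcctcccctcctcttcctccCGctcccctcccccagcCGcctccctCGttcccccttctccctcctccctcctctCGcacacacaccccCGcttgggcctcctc
The window of Pbx2 held 29 CpG sites at a GC content of 76.0%, against 21 sites and 66.7% for Meis3 and 15 sites and 58.3% for Meis1. The windows of Meis2 and Pbx4 held 13 and 19. Over all 32851 promoter windows of the table the median was 7 CpG sites and 52.7% GC. All 5 members with a window lay above the median of CpG sites, and Meis2, at 51.0%, was the member below the median GC content.

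Sites for the factors themselves were also looked for in those 5 windows on both strands, by letters alone. Neither the Pbx-Hox motif TGATNNAT, which 8.85% of all windows of this length hold, nor the Meis and Pknox motif TGACAG (19.2%) was found in any of the 5. The joined Pbx-Meis motif, TGAT followed directly by TGACAG (0.222%), and the nuclear receptor half-site AGGTCA (16.3%) were not found either. The TATA motif TATAAA (13.6%) was found in the window of Meis2 only. No match means only that these letters were not in these 300 bases.

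The labels were checked on Htt and on marker genes before the levels were compared. In ESC, Htt had 14385 counts (wild-type) and 7260 (Htt-null), and at the RA-DIFF stage 8212 (labelled wild-type) and 9722 (labelled Htt-null). In CPM, counts relative to the library total after TMM scaling, which evens out differences in composition, these were 166, 111, 73.3 and 98.7. Htt was thus lower in the Htt-null line in ESC and higher in the library labelled Htt-null in RA-DIFF, against its label. The counts cover the whole gene and do not isolate the targeted exons. The 2 RA-DIFF libraries are therefore called by their labels throughout, and the members' stage and genotype ratios are also given without the labels or with the labels exchanged. The marker and gene list counts between the RA-DIFF libraries are given as labelled, and an exchange would turn their direction. The 8 pluripotency markers summed to 5160 and 4426 CPM in ESC (wild-type, Htt-null) and to 79.1 and 18.6 CPM in RA-DIFF (labelled wild-type, labelled Htt-null). The summed levels of 10 neuron markers, in the same order, were 287, 320, 2857 and 1321 CPM.

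The Meis genes had low levels in ESC and were between 7.96-fold and 81.6-fold higher in the RA-DIFF library of the same label. Meis1, a cofactor known for its part in limb, eye and blood development, had 89 and 127 counts in the wild-type and Htt-null ESC libraries and 9395 and 8648 in the RA-DIFF libraries labelled wild-type and Htt-null, or 1.03, 1.95, 83.8 and 87.8 CPM. The RA-DIFF libraries did not overlap the ESC libraries, and the ratio was the largest of the 8 genes in both lines, at 6.35 on the log2 scale between the libraries labelled wild-type (95% counting interval 6.05 to 6.67) and 5.49 between those labelled Htt-null (5.24 to 5.76). These intervals, exact ones for the counts of a pair of libraries, cover counting error only.

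Meis2, which is known for roles in the neural crest, the limb and neuron production, was already measurable in ESC. It had 848, 598, 10677 and 7191 counts in the order wild-type ESC, Htt-null ESC, RA-DIFF labelled wild-type and RA-DIFF labelled Htt-null, or 9.78, 9.17, 95.3 and 73.0 CPM. Its RA-DIFF over ESC log2 ratios were 3.28 (labelled wild-type) and 2.99 (labelled Htt-null), smaller than those of the other Meis genes. Meis3, a member of the family known for its part in hindbrain patterning, had 79, 76, 5141 and 2306 counts, or 0.911, 1.17, 45.9 and 23.4 CPM. Like Meis1 it had few counts in ESC, and its ratios of 5.65 and 4.33 were the second largest between the libraries labelled wild-type and the third largest between those labelled Htt-null.

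The Pbx genes were higher in RA-DIFF as well, but by less. Pbx2, a broadly expressed member, had 5648, 3188, 16317 and 9545 counts in the 4 libraries, or 65.1, 48.9, 146 and 96.9 CPM. Its log2 ratios were 1.16 and 0.99. Pbx3, known for its part in the hindbrain circuits that drive breathing, had 2014, 1182, 11988 and 8368 counts, or 23.2, 18.1, 107 and 85.0 CPM. As labelled, the ratios of Pbx3 were the most alike between the lines, at 2.20 and 2.23, but with the RA-DIFF labels exchanged they were 1.87 and 2.56. Pbx4, the family member known chiefly from the testis, had 311, 381, 1521 and 966 counts, or 3.59, 5.84, 13.6 and 9.81 CPM. Its ratios were 1.92 between the libraries labelled wild-type and 0.75 between those labelled Htt-null (counting interval 0.58 to 0.92), just inside the fold limit described below.

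The Pknox genes went separate ways. Pknox1, which is needed in the epiblast of the early embryo, had 3790, 2605, 4315 and 4301 counts, or 43.7, 39.9, 38.5 and 43.7 CPM. It was the member with the smallest difference between stages, and its ESC and RA-DIFF values overlapped, with log2 ratios of -0.18 and 0.13. Pknox2, which binds the same kind of site, had 173, 142, 3629 and 6312 counts, or 1.99, 2.18, 32.4 and 64.1 CPM. Its ratios were 4.02 and 4.88, or 16.2-fold and 29.4-fold. Pknox2 was the member with the highest ratio after Meis1 between the libraries labelled Htt-null.

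**Figure D1:**
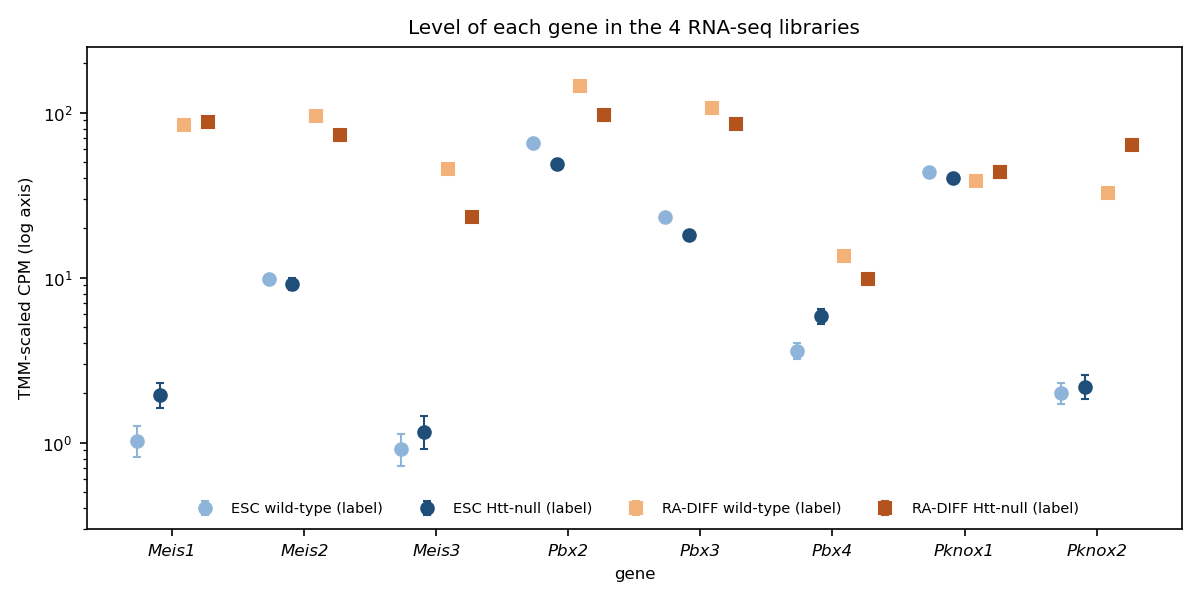
Level of the 8 genes (x axis) in the 4 RNA-seq libraries, in TMM-scaled CPM on a log axis. Circles are ESC and squares RA-DIFF libraries, 1 library each, and bars are exact 95% Poisson intervals, which cover counting error only and are often smaller than the symbols. The squares lie above the circles for every gene except Pknox1, whose 4 values lie between 38.5 and 43.7 CPM.

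As a common rule, a gene was counted as different when its absolute log2 ratio was above 0.75 and its average log2 CPM above 0. This average, computed by edgeR, is the log2 of a mean level over the 4 libraries, not the mean of 4 log2 values. This expression limit was passed by 15492 genes and all 8 members. Between the libraries labelled wild-type, 7 of the 8 members were higher in RA-DIFF and 0 lower, where 34.0% of all tested genes were higher, 26.2% lower and 60.2% different in either direction. Between the libraries labelled Htt-null, 6 were higher and 0 lower, where 34.4% of all tested genes were higher, 24.9% lower and 59.2% different. The median log2 ratio of the 8 members was 2.74 and 2.61, and that of all tested genes 0.12 and 0.17. When an edgeR exact test at an assumed dispersion of 0.1, the value stated in the study's methods, was added to the limits, 6 and 5 members passed, beside 6354 and 6191 of all 15492 genes. At an assumed dispersion of 0.01 it was 7 and 6 members, beside 9319 and 9171 genes.

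The difference between the stages does not depend on which RA-DIFF library belongs to which line for most members. In 7 members both RA-DIFF libraries lay above both ESC libraries, as they did in 46.4% of all tested genes. In 5 members (Meis1, Meis2, Meis3, Pbx3 and Pknox2) they did so by more than 0.75 on the log2 scale in all 4 pairs of libraries, as in 27.5% of all tested genes. The smallest of the 4 pairwise log2 ratios was 5.43 for Meis1, 4.33 for Meis3, 3.90 for Pknox2, 2.90 for Meis2 and 1.87 for Pbx3. For Pbx2 it was 0.57 and for Pbx4 0.75. With the RA-DIFF labels exchanged, the ratio of Pbx2 was 0.57 for the wild-type line and 1.58 for the other, and Pbx4 had 1.45 and 1.22.

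**Figure D2:**
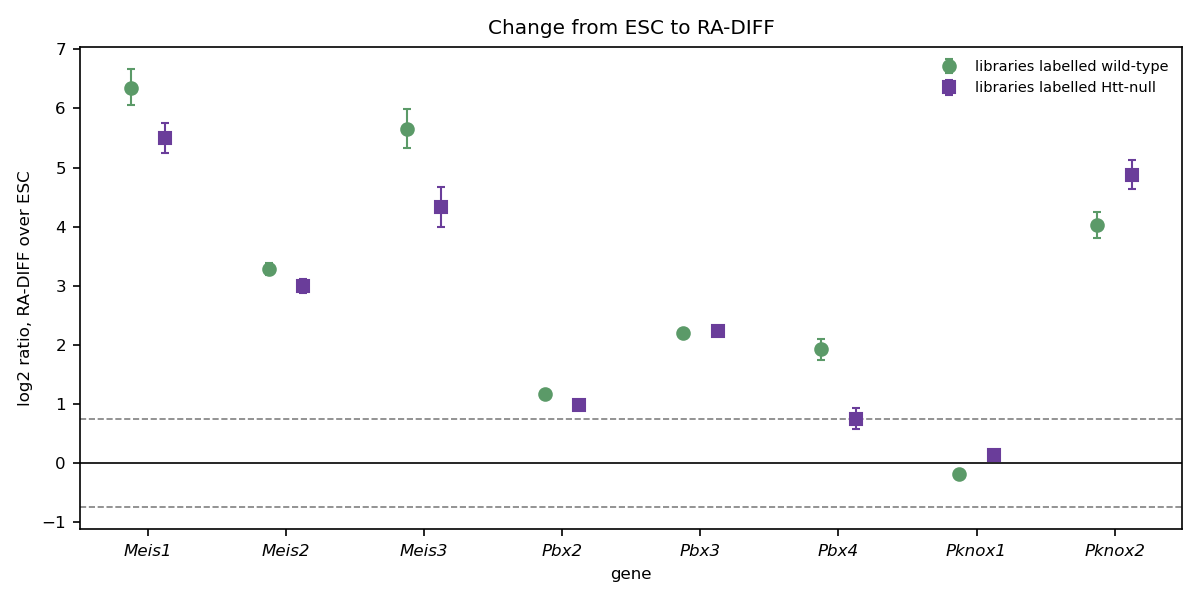
Log2 ratio of RA-DIFF over ESC for the 8 genes, between the libraries labelled wild-type (circles) and those labelled Htt-null (squares). Bars are 95% counting intervals, dashed lines the limits of 0.75 in both directions. Ratios run from near 0 for Pknox1 to 6.35 for Meis1, and the square of Pbx4 lies on the upper limit.

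Levels can be compared between genes only per length, and here the CPM was divided by the kilobases of all annotated exons of a gene or, as a second choice, of its longest coding transcript. Pbx2 was the highest of the 8 genes in all 4 libraries by either length, at 17.9, 13.4, 40.0 and 26.6 CPM per kb of exon (same order of libraries as above). Per kb of the longest transcript, however, its counting interval overlapped that of Pbx3 in RA-DIFF labelled Htt-null, at 31.6 and 31.1. In ESC, Pknox1 was second by either length, at 6.30 and 5.76 CPM per kb of exon, and Pbx3 came next, at 3.80 and 2.97. Below these followed, per kb of exon in wild-type ESC, Pbx4 at 1.62, Meis2 at 0.812, Meis3 at 0.287, Pknox2 at 0.193 and Meis1 at 0.0974. The order was the same in Htt-null ESC, where the counting intervals overlapped for Pbx3 and Pbx4, at 2.97 and 2.63, and for Pknox2 and Meis1, at 0.211 and 0.185.

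In RA-DIFF, Pbx3 was second by either length, at 17.5 and 13.9 CPM per kb of exon. Below it the order differed between the libraries and with the choice of length. In the library labelled wild-type, Meis3 followed at 14.5, Meis1 at 7.96, Meis2 at 7.91, Pbx4 at 6.12, Pknox1 at 5.55 and Pknox2 at 3.13 CPM per kb of exon, and the counting intervals of Meis1 and Meis2 overlapped. In the library labelled Htt-null, Meis1 followed at 8.34, Meis3 at 7.38, Pknox1 at 6.30, Pknox2 at 6.20, Meis2 at 6.06 and Pbx4 at 4.42, and the intervals of Pknox1 and Pknox2 and of Pknox2 and Meis2 overlapped. Meis2 was the gene most affected by the choice of length, since its annotated exons span 12043 bases and its longest coding transcript 3718: per kb of that transcript it came next after Pbx2 and Pbx3 in both RA-DIFF libraries, at 25.6 and 19.6, although its interval overlapped that of Meis3, at 24.9, in the one labelled wild-type.

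Summed per kb of exon, the 3 Meis genes had 1.20 and 1.31 CPM per kb in ESC and 30.3 and 21.8 in RA-DIFF, and the 2 Pknox genes 6.50, 5.97, 8.69 and 12.5. The Meis sum was thus 0.184 and 0.220 of the Pknox sum in ESC and 3.49 and 1.74 times the Pknox sum in RA-DIFF. With the longest transcripts these ratios were 0.301, 0.336, 3.43 and 1.58. Within the Meis genes, Meis2 made up 67.9% and 58.0% of the sum per kb of exon in ESC and 26.1% and 27.8% in RA-DIFF. With the longest transcripts it was 80.6% and 73.4% in ESC and 41.6% and 44.6% in RA-DIFF. Within the Pknox genes, Pknox2 made up 2.97% and 3.53% in ESC and 36.1% and 49.6% in RA-DIFF (49.6% and 63.2% in RA-DIFF with the longest transcripts). In both RA-DIFF libraries the Pknox genes were therefore a pair with levels of the same order, where in ESC nearly all of the sum was Pknox1.

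**Figure D3:**
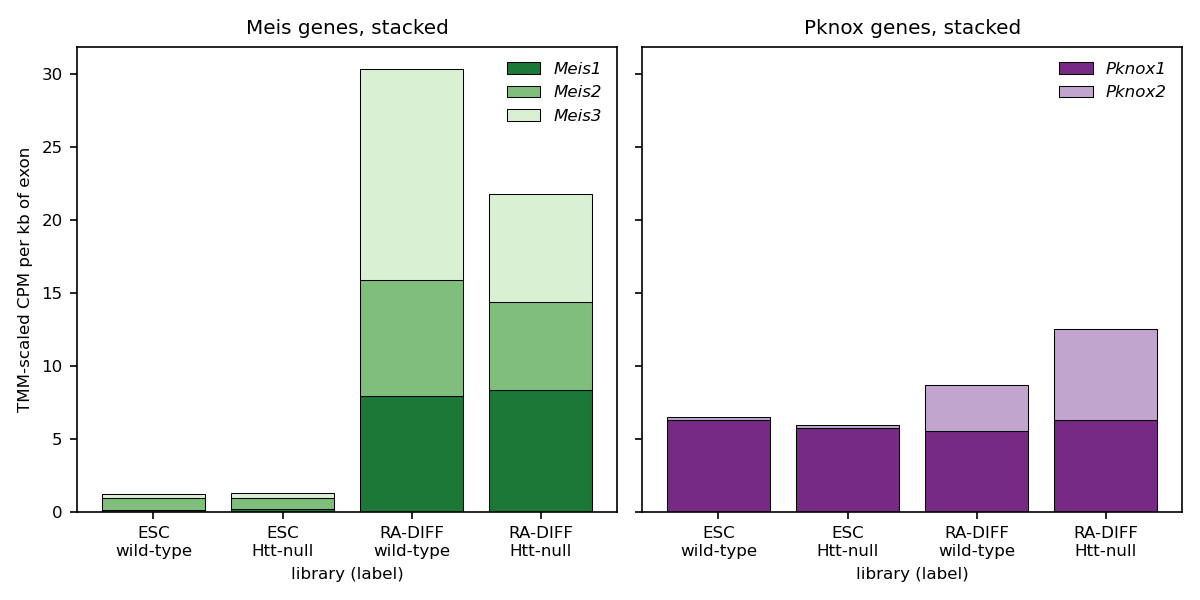
Summed level of the 3 Meis genes (left) and the 2 Pknox genes (right) in each library, in TMM-scaled CPM per kb of annotated exon, as stacked bars with 1 library per bar and no error bar. The Meis sum rises from 1.20 and 1.31 in ESC to 30.3 and 21.8 in RA-DIFF, and the Pknox sum from 6.50 and 5.97 to 8.69 and 12.5.

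The question of whether the Htt-null line differed from the wild-type line was then asked at each stage. In ESC, 1 of the 8 members passed the limits. This was Meis1, higher in the Htt-null line at 1.95 against 1.03 CPM (127 and 89 counts), a log2 ratio of 0.92 with a counting interval of 0.52 to 1.33. Of all tested genes, 5.44% were higher, 3.76% lower and 9.20% different in either direction. Pbx4 was next at 0.70 (0.48 to 0.92), inside the limit. Meis3 and Pknox2, with 79 and 173 counts or fewer in each ESC library, had ratios of 0.35 (-0.12 to 0.83) and 0.13 (-0.20 to 0.45), which counting error alone spans. Meis2 and Pknox1 differed by -0.09 and -0.13. Pbx2 and Pbx3 were lower in the Htt-null line, at -0.41 and -0.36, within the limits. The median of the members was 0.02, beside -0.04 for all tested genes. With the exact test at the dispersion of 0.1 added, 0 members and 252 genes passed, and at 0.01, 1 member and 1159 genes, so that the call of Meis1 depends on the dispersion assumed.

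In RA-DIFF, 2 of the 8 members passed the limits, 1 in each direction, where 21.2% of all tested genes did, 11.9% with a higher and 9.31% with a lower level under the Htt-null label. Pknox2 was higher there, at 64.1 against 32.4 CPM, a log2 ratio of 0.98 (counting interval 0.93 to 1.04). Meis3 was lower, at 23.4 against 45.9 CPM, a ratio of -0.97 (-1.04 to -0.90). The other 6 lay within the limits. The Pbx genes were all lower by less than the limit, with -0.59 for Pbx2, -0.33 for Pbx3 and -0.47 for Pbx4. Meis2 had -0.38, Meis1 0.07 and Pknox1 0.18. The median of the members was -0.36, beside -0.01 for all tested genes. With the exact test added, 0 members and 1341 genes passed at the dispersion of 0.1, and 2 members and 3097 genes at 0.01. If the RA-DIFF labels are exchanged, each of these ratios keeps its size and changes its sign.

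**Figure D4:**
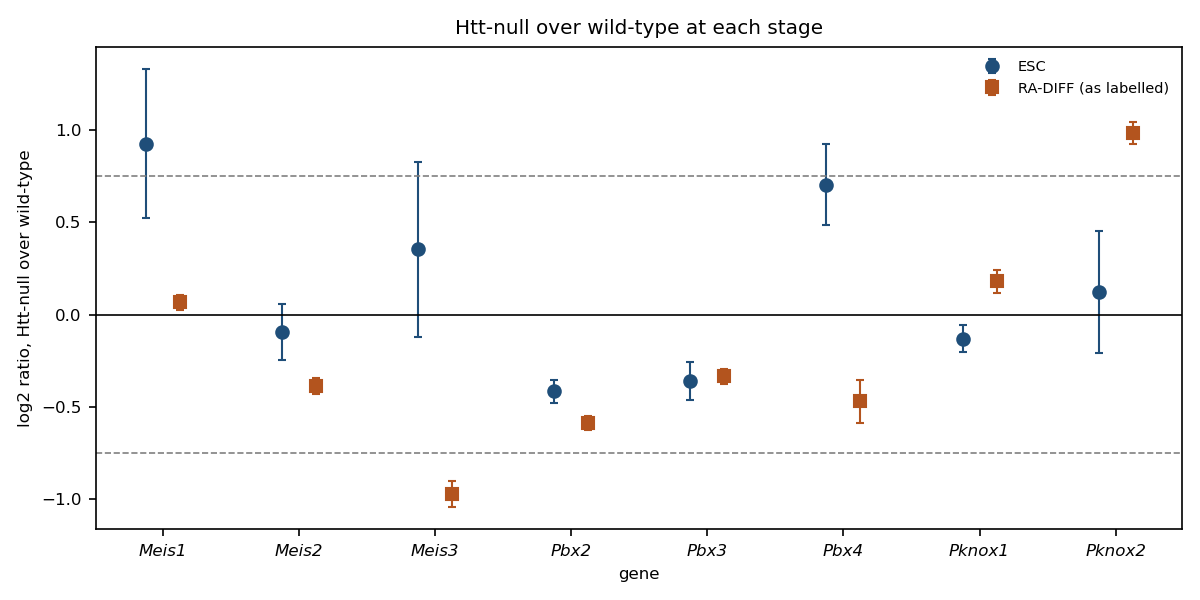
Log2 ratios between the genotypes (Htt-null over wild-type) for the 8 genes, in ESC (circles) and in RA-DIFF as labelled (squares), with 95% counting intervals and dashed lines at 0.75 in both directions. Meis1 in ESC and Pknox2 in RA-DIFF lie above the upper line and Meis3 in RA-DIFF below the lower one.

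The RA-DIFF libraries differed in the markers of their cell types as well. The library labelled Htt-null had higher levels of all 10 fibroblast and mesenchyme markers, with summed levels of 2473 against 635 CPM, and lower levels of 8 of 10 neuron markers (1321 against 2857 CPM) and 7 of 8 pluripotency markers (18.6 against 79.1 CPM). Of all tested genes, 11.9% were higher and 9.31% lower in this library. None of these markers was at 0 counts in either RA-DIFF library. Of 8 neural progenitor markers 4 were lower and 0 higher, with nearly equal sums of 2735 and 2804 CPM. Of the 6 endothelial markers above the expression limit 3 were higher and 1 lower (89.1 against 24.2 CPM), and of 5 primitive and visceral endoderm markers 2 were higher and 0 lower (59.8 against 18.5 CPM). The erythroid markers summed to under 3 CPM in both, with 1 of 5 above the expression limit. In bulk RNA, more or fewer cells of a type and more or less RNA per cell cannot be told apart, and the part of these markers in the differences of Pknox2 and Meis3 was not tested. In ESC, 7 of the 10 mesenchyme markers were lower in the Htt-null library (25.9 against 44.9 CPM), where 3.76% of all tested genes were lower. Dcn, 1 of these 7, was at 0 counts in the Htt-null ESC library.

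The ratio between stages was not the same size in both lines for every gene. Taken as labelled, the RA-DIFF over ESC log2 ratio of the Htt-null line minus that of the wild-type line was -1.33 for Meis3, -1.17 for Pbx4, -0.86 for Meis1 and 0.86 for Pknox2. For Meis2, Pbx2, Pbx3 and Pknox1 it was -0.29, -0.17, 0.03 and 0.31. As labelled, the values for Meis1 and Pbx4 include their ESC genotype ratios of 0.92 and 0.70, and those for Meis3 and Pknox2 come mostly from RA-DIFF. With the RA-DIFF labels exchanged, the same differences were 0.62 for Meis3, -0.24 for Pbx4, -0.99 for Meis1 and -1.11 for Pknox2, and 0.48, 1.00, 0.69 and -0.05 for Meis2, Pbx2, Pbx3 and Pknox1. The sign therefore turned for Meis2, Meis3, Pbx2, Pknox1 and Pknox2. With 1 library per condition these differences of ratios could not be tested.

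For each member, the 3 protein-coding genes whose 4 log2 CPM values, centred on their mean, lay closest were looked up among 13923 genes, as a description over 4 libraries. Nearest to Meis1 was 6430548M08Rik (distance 0.15 log2 units), followed by Tceal3 and Rab36. Meis2 lay closest to Zc3h12c, Faxc and Tpbg, the nearest at 0.12. Meis3 lay closest to Lix1 (0.14), Cntfr, which encodes the receptor subunit for ciliary neurotrophic factor, and Vipr2. Pbx2 had Dynlt1c (0.11), Peli2 and Zfp946, and Pbx3 had Panx2 (0.04), Tmem86b and Irgq. Lgi1 (0.10) and Rab20 were near Pbx4, and Pknox1 had Pomt1 (0.03), Abhd3 and Pfdn1. Nearest to Pknox2 were Pon2 (0.14), Zfp9 and Heg1. No member was among the 3 nearest genes of another member, and the closest pair of members was Pbx2 and Pbx4, at 0.83.

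Of the Hox genes that the cofactors partner, those of paralogue groups 1 to 8 had higher summed levels in both RA-DIFF libraries than in both ESC libraries. The counts over this and the following lists stand against 34.0% higher and 26.2% lower among all tested genes in RA-DIFF over ESC labelled wild-type, 34.4% and 24.9% labelled Htt-null, 11.9% and 9.31% between the RA-DIFF libraries, and 5.44% and 3.76% between the ESC libraries. The 12 genes of paralogue groups 1 to 4, the most 3′ groups and the ones active in the hindbrain, summed to 4.81 and 4.22 CPM in ESC and 48.6 and 23.3 in RA-DIFF. Of the 8 above the expression limit, 6 were higher and 0 lower between the libraries labelled wild-type, and 7 and 0 between those labelled Htt-null. Most of these genes passed the expression limit through RA-DIFF alone, which favours the higher direction, so these counts are a description. Hoxa2, the selector of the second pharyngeal arch, had 0 and 10 counts in ESC and 1144 and 359 in RA-DIFF. Groups 5 to 8 summed to 2.05 and 1.90 CPM in ESC and 20.5 and 18.9 in RA-DIFF, with 3 higher and 1 lower (Hoxd8) of 4 genes between the libraries labelled wild-type, and 4 higher of 4 between those labelled Htt-null. Hoxa5, Hoxb5 and Hoxb8 had at most 8 counts in either ESC library and passed the expression limit through RA-DIFF alone. The 16 genes of groups 9 to 13 summed to 8.80, 7.51, 9.23 and 7.21 CPM, with 1 higher and 2 lower of 3 genes in both comparisons. The 2 lower genes, Hoxc13 and Hoxd13, passed the limit through ESC alone, which favours the lower direction. The counts of these groups are therefore also a description. Between the RA-DIFF libraries, 5 of 8 genes in groups 1 to 4 were lower and 1 higher in the one labelled Htt-null. The lowest was Hoxb1, the gene of the fourth hindbrain segment, with 64 against 532 counts. In groups 5 to 8, 1 of 4 was higher and 1 lower, and in groups 9 to 13, 0 of 3 higher and 2 lower. The latter 2 had few counts in RA-DIFF, with 0 against 12 for Hoxc13 and 3 against 59 for Hoxd13. In ESC the Htt-null library had 3 higher and 1 lower of 8 in groups 1 to 4 and 0 of 4 and 0 of 3 in the other groups, but those 4 genes (Hoxa2, Hoxb1, Hoxb2 and Hoxb3) had at most 10 counts in either ESC library.

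Genes with known Pbx-Meis-Hox elements were counted in the same way. Of the 6 listed (Hoxb1, Hoxb2, Hoxa2, Aldh1a2, Pax6 and Epha8), which include 3 of those Hox genes, 5 were higher and 0 lower in RA-DIFF between the libraries labelled wild-type, and 5 higher and 1 lower between those labelled Htt-null. The 3 Hox genes among them passed the expression limit through RA-DIFF alone, so these counts too are a description. Aldh1a2 was the gene within the limits in the former comparison, at 0.11, and Epha8 the lower one in the latter, at -2.46. Between the RA-DIFF libraries 5 were lower and 0 higher in the one labelled Htt-null, from Hoxb1 at a log2 ratio of -2.87 to Pax6, the eye and neural tube regulator, at -0.79, while Aldh1a2 had 0.71. In ESC 3 were higher and 1 lower, among them Hoxb1 and Hoxb2 with at most 4 counts in either library. Of the other TALE genes, 5 of 8 were higher and 2 lower in RA-DIFF between the libraries labelled wild-type, and 4 and 1 between those labelled Htt-null. Tgif1, which encodes a repressor of the TGF-beta and retinoid pathways, was the lowest in both, at -2.10 and -2.03. Between the RA-DIFF libraries 4 were lower and 1 higher in the one labelled Htt-null, with Irx3, a neural tube regulator, at 3.28 against 28.5 CPM. In ESC 2 were higher and 1 lower, the latter Irx6 with 0 counts in the Htt-null and 4 in the wild-type library. Of 8 retinoic acid response genes, 5 were higher and 1 lower, and 7 and 1, in RA-DIFF over ESC. Between the RA-DIFF libraries 4 of them were higher and 2 lower in the one labelled Htt-null, and in ESC 0 were higher and 1 lower. Of 3 hindbrain segment genes above the expression limit, 2 were higher in RA-DIFF in both comparisons.

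Small RNA-seq of the same 4 conditions gave the levels of miRNAs whose seed (bases 2 to 8) can pair with a member's 3′ UTR. Those with the miR-204 seed, known as regulators of Meis genes in the eye, and miR-495 of the Dlk1-Dio3 cluster were looked up. The mature sequences are printed with the seed in capitals, and miR-204-5p and miR-211-5p share it. They lie at chr19:22750610-22750631, chr7:64205831-64205852 and chr12:109718795-109718816 (build GRCm38.p6, plus strand, RefSeq), in the order printed.
miR-204-5p: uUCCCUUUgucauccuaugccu
miR-211-5p: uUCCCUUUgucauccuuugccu
miR-495-3p: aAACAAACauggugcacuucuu
The pairing 7-mer of the shared seed, AAAGGGA, was found once in the 3′ UTR of Meis1 and once in that of Meis3, and in none of the other 6 genes. These are the only seed matches for miR-204-5p and miR-211-5p among the members, and they are shown with 8 bases before and 4 after, the match in capitals.
Meis1 (bases 2098 to 2104 of a 3′ UTR of 5687): caatggaaAAAGGGAgaat
Meis3 (bases 12 to 18 of a 3′ UTR of 472): ctgggttcAAAGGGAaggt
Of all genes with a 3′ UTR at least as long, 59.5% (for Meis1) and 20.5% (for Meis3) hold this 7-mer. The 7-mer of miR-495-3p, GTTTGTT, occurred 3 times in Meis1, 2 times in Pbx2 and once in Pknox1, and 78.2%, 41.4% and 55.5% of genes with a 3′ UTR at least as long hold it. The matches at bases 535 to 541 and 539 to 545 of Meis1 overlap, as do those at 590 to 596 and 594 to 600 of Pbx2. A match is a description and not a functional site.

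miR-211-5p had 1294 and 693 counts in wild-type and Htt-null ESC and 19 and 23 in RA-DIFF labelled wild-type and Htt-null. miR-204-5p had 55, 67, 170 and 175 counts. On the TMM scale the log2 ratios of miR-211-5p were -5.91 and -4.05 and those of miR-204-5p 1.80 and 2.24, and by library size alone they were -7.07 and -5.92, and 0.63 and 0.36. miR-211-5p was lower in RA-DIFF on both scales. For miR-204-5p the counting interval by library size ran from 0.19 to 1.10 between the libraries labelled wild-type and from -0.05 to 0.79 between those labelled Htt-null, so its direction was not resolved in the latter. miR-495-3p had 3510, 8412, 1725 and 721 counts. Between the genotypes its log2 ratio came to 1.14 for ESC and -0.70 for RA-DIFF as labelled (1.37 and -1.18 by library size). The part of any of these miRNAs in the levels of Meis1, Meis3, Pbx2 or Pknox1 was not tested.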

How the data were processed

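Poly-A-plus RNA and small RNA were sequenced from wild-type and Htt-null ESC and RA-DIFF, 1 library per condition and assay (8 libraries, with RNA-seq totals of 63617410 to 110569127). For RNA-seq, the authors aligned 50 bp strand-specific read pairs to GRCm38 with TopHat2, counted them on GENCODE genes with HTSeq (options they do not name, the strand option among them, at default) and deposited raw counts. For small RNA, the authors trimmed reads with cutadapt, mapped reads of 16 to 25 bases to mature miRNAs with BWA, allowing 1 difference, and deposited raw counts. TopHat2 2.0.14, HTSeq 0.6.1, cutadapt 1.3 and BWA 0.7.5a-r418 are the versions in the submitters' processing notes.

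TMM factors over the 4 libraries of an assay and log2 ratios (prior count 0.125) were computed with edgeR 4.0.16 in R 4.3.3. The rest used scipy 1.17.1, pandas 2.3.3 and numpy 2.4.6 in Python 3.11.15, and matplotlib 3.10.9 for figures. A single library per condition gives no estimate of the spread within it. Models that take the lines or the stages as replicates of each other were not fitted, and no p-value is given. The fold and expression limits of the study were used without its test. The exact test at assumed dispersions of 0.1 and 0.01, DESeq2 1.42.0 size factors, library size alone, other limits, a prior count of 2 and exchanged RA-DIFF labels were alternatives. Ratio intervals are Clopper-Pearson and level intervals Poisson, both exact at 95%. The limit for an RNA-seq count of 0 is 3 counts, equal to 0.0268 to 0.0460 CPM.

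The genes named are the 8 members and Htt, the 3 nearest genes of each member, from each gene list those past the limits with the highest and the lowest ratio in a comparison, and 3 miRNAs; a few of these genes are not reported here. Members, gene lists and the rules above were chosen with earlier results of these data known. The remaining genes of the list with Pbx-Meis-Hox elements and the list genes with few counts in ESC or RA-DIFF are named outside that rule. The promoter measures, the 5 promoter motifs, the seed matches, the pairwise comparison of stages, the differences of ratios with exchanged labels and the length choices were added after the files had been seen, and all motifs and seeds searched are reported. Lengths, overlaps and 3′ UTRs come from GENCODE vM21, promoters and miRNAs from RefSeq. The promoter table held 5 of the 8 members. The steps were tested on simulated data.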

Additional observations from a re-analysis of the deposited data

How the results depend on the processing

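The number of members past the limits in RA-DIFF over ESC was 6 or 7 between the libraries labelled wild-type and 5 to 7 between those labelled Htt-null under all 9 alternatives, while the counts over all genes, leaving aside the alternative without the expression limit, ran from 6354 to 9339 and from 6191 to 9171. The genotype counts were less stable. With the exact test at a dispersion of 0.1 they were 0 members in ESC and 0 in RA-DIFF, beside 252 and 1341 of all genes, and at 0.01 they were 1 and 2, beside 1159 (698 higher, 461 lower) and 3097 (1784 higher, 1313 lower as labelled), where the limits alone gave 1425 and 3285. With a fold limit of 1 they were also 0 and 0, beside 852 and 2295 of all genes. Library size alone gave 2 members in ESC, Pbx4 being added. Without the expression limit the counts over all genes were 21720 and 21511 for RA-DIFF over ESC (labelled wild-type, labelled Htt-null) and 10086 and 12165 for the genotypes in ESC and RA-DIFF, since genes with few counts enter. With the RA-DIFF labels exchanged, the genotype ratios of Meis3 and Pknox2 in RA-DIFF became 0.97 and -0.98 by construction. Of the 32 ratios of members, 32 moved by less than counting error under a prior count of 2, 31 under DESeq2 size factors and 26 under library size alone, and no rescaling moved a member's ratio by more than 0.0716. No paired analysis was possible because the labels give no replicate numbers and each condition has 1 library, so no replicate could be left out either. Depth limits Meis1, Meis3 and Pknox2 in ESC, which had between 76 and 173 counts.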
